A study of Homo sapiens with 6 samples.

Results

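Keratins of luminal and basal epithelium were followed in LNCaP cells, an androgen-dependent line established from a metastasis of human prostate cancer, and in LNCaP-enzaR cells, a derivative resistant to enzalutamide. Enzalutamide is a drug that blocks androgen signaling. The set holds KRT5, KRT7, KRT8, KRT15, KRT18, KRT19, KRT23 and KRT80, chosen by gene symbol, which are 8 of the 54 keratin genes considered. Of the 8, 7 had a row in the table of 35554 genes, and 5 had enough counts to be tested among 19711 genes. KRT23 had no row and was not analysed here. RNA sequencing was done on 3 flasks of each line, grown to below confluence. Resistant cells were obtained by growing the parental line in the drug without a break, so they stand for 1 selection history, and the 3 flasks do not sample other selections. Per the study's methods these cells were afterwards maintained on a lower dose of enzalutamide, and the labels do not state what the medium held at harvest. P-values measure the spread between flasks.

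Keratins are the intermediate filament proteins of epithelial cells. A filament is built from pairs of an acidic type I chain and a basic type II chain, so a cell needs both types. KRT8 (type II) and KRT18 (type I) are the partners of simple epithelium and fill the luminal cells of the prostate, often with KRT19 (type I) and, in some glands, KRT7 (type II). KRT5 (type II) and KRT15 (type I) belong to basal cells of stratified and glandular epithelium, and loss of the basal layer is a hallmark of prostate adenocarcinoma. KRT80 is a type II keratin of many epithelia, found near the cell margin. KRT23 is a type I keratin.

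Genes of a keratin type resemble each other in the rod domain, where reads of a close relative would be hardest to place. The longest run that KRT8 shared with KRT80 anywhere in their canonical transcripts (GENCODE v44) was 65 bases, and the one it shared with KRT7 was 41 bases, both shorter than the 150-base reads. To show how far the type I members differ, 90 bases that encode the start of the rod are given from their coding sequences (GENCODE v44, GRCh38). They lie at chr12:52949411-52949500 on the plus strand for KRT18 (exon 1 of 7), chr17:41527921-41528010 on the minus strand for KRT19 (exon 1 of 6) and chr17:41518426-41518515 on the minus strand for KRT15 (exon 1 of 8). Capitals mark the 61 bases shared by all 3 genes.
KRT18: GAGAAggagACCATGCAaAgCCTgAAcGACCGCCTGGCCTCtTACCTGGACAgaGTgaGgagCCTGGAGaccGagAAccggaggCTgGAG
KRT19: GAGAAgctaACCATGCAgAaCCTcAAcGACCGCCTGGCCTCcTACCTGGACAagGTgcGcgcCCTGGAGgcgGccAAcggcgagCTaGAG
KRT15: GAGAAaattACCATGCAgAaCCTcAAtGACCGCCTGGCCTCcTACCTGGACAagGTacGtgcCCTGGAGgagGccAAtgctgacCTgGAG
KRT18 was matched at 68 of the 90 bases by KRT19 and at 62 by KRT15. KRT18 lies beside KRT8 in the type II cluster of chromosome 12, while the other type I genes lie on chromosome 17. Exons annotated to KRT18 overlapped those of KRT8 over 17.1% of the exonic bases of KRT18 and 7.63% of those of KRT8. The strand setting of the counting is not stated, so reads from the overlap cannot be assigned between them.

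Libraries held 77759122 to 98616465 counts. Log2 CPM (counts scaled to 1000000 per library after TMM, the trimmed mean of M values) correlated across genes at 0.9898 to 0.992 within a line and at 0.921 to 0.926 between lines. Mitochondrial genes took 6.72% to 7.06% of the counts in parental cells and 14.7% to 15.5% in LNCaP-enzaR, a difference that goes with the line in every library, and without the mitochondrial genes KRT8 had a log2 fold change of 1.16, KRT18 of 0.50, KRT19 of -1.51 and KRT80 of 2.20. Epithelial identity was checked with luminal markers, all 8 of which were measured. KLK3, which encodes prostate-specific antigen, was at 1190 ± 42.1 CPM in parental cells and 141 ± 9.26 in LNCaP-enzaR. Of 10 markers of non-epithelial cells, 9 had a row, and their summed level was 21.7 to 24.8 CPM in parental cells and 19.5 to 20.5 in LNCaP-enzaR. The endothelial genes CDH5 and PECAM1 and the leukocyte gene PTPRC had at most 5 counts in any library, while the endothelial gene VWF had 345 to 555, the fibroblast gene COL1A1 358 to 1184 and the smooth muscle gene ACTA2 142 to 853 (genes of this check were chosen after their values were seen). Values below are the mean ± SD of 3 libraries, and fold changes are LNCaP-enzaR over parental. The threshold was an edgeR adjusted p no higher than 0.05 together with a fold change no smaller than 1.5.

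KRT8 was higher in LNCaP-enzaR than in parental cells, and KRT18, its partner, was past the adjusted p but not the fold limit. KRT8 had 35188, 35655 and 32867 counts in parental replicates 1, 2 and 3, and 88415, 73881 and 79098 in LNCaP-enzaR replicates 1, 2 and 3. All LNCaP-enzaR libraries were above all parental libraries. KRT8 stood at 397 ± 19.6 CPM in parental cells and 886 ± 122 in LNCaP-enzaR, a 2.23-fold rise (log2 fold change 1.16, SE 0.081, edgeR adjusted p = 1.31e-08). In such bulk libraries a change in RNA per cell and a change in the share of cells that express a gene cannot be told apart.

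KRT18 had 26610, 26090 and 23970 counts in the parental libraries and 40654, 34736 and 37581 in the LNCaP-enzaR libraries. Here too the lines did not overlap. Its CPM was 293 ± 10.4 in parental cells and 414 ± 49.7 in LNCaP-enzaR, 1.41-fold (log2 fold change 0.50, SE 0.073, edgeR adjusted p = 3.14e-05). Under upper-quartile scaling, which moves the median of all genes by 0.10 on the log2 scale, the log2 fold change of KRT18 was 0.60, past the fold limit. Pseudogenes of KRT8, of which 28 were in the table, summed to 1169 to 1565 counts per library, and the 37 of KRT18 to 181 to 257. Adding these counts to the parent gene left KRT8 at a log2 fold change of 1.13 and KRT18 at 0.50.

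KRT19, the smallest keratin, went the other way. It had 534, 468 and 442 counts in the parental libraries and 210, 161 and 154 in the LNCaP-enzaR libraries. Every parental library was above every LNCaP-enzaR library. KRT19 fell from 5.51 ± 0.327 to 1.94 ± 0.452 CPM (log2 fold change -1.51, SE 0.155, edgeR adjusted p = 7.78e-07).

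KRT7 was close to the limit of detection. It had 5, 0 and 0 counts in the parental libraries and 35, 22 and 13 in the LNCaP-enzaR libraries. The gene passed the count filter through its LNCaP-enzaR libraries alone. It was called higher (log2 fold change 3.69, SE 0.897, edgeR adjusted p = 0.00224), and its ratio of summed counts, scaled to the library sizes, was 13.4 with an exact 95% interval of 5.48 to 42.5 that covers counting error only. All of its parental counts came from replicate 1, and without that library the fitted log2 fold change was 7.54. KRT7 shares 7.85% of its exonic bases with an antisense gene and a pseudogene.

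KRT80 showed the largest fold change of the members with more than 100 counts in every library. It had 214, 219 and 192 counts in the parental libraries and 1084, 986 and 904 in the LNCaP-enzaR libraries. The groups were far apart compared with their spread. KRT80 rose 4.58-fold, from 2.39 ± 0.0682 to 10.9 ± 1.74 CPM (log2 fold change 2.20, SE 0.127, edgeR adjusted p = 1.53e-09). No exonic base of KRT80 overlapped another gene.

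The basal members were near or at 0 in both lines. KRT5, the type II keratin of basal cells, had 0 counts in all 3 parental libraries and 2, 0 and 0 in LNCaP-enzaR. KRT15, a type I keratin of basal cells, had 4, 0 and 0 counts in parental cells and 2, 4 and 0 in LNCaP-enzaR. Neither passed the filter, and the lines overlapped for both. A library at 0 counts allows a level of up to 3 counts, which corresponds to 0.0302 to 0.0382 CPM across these libraries.

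**Figure D1:**
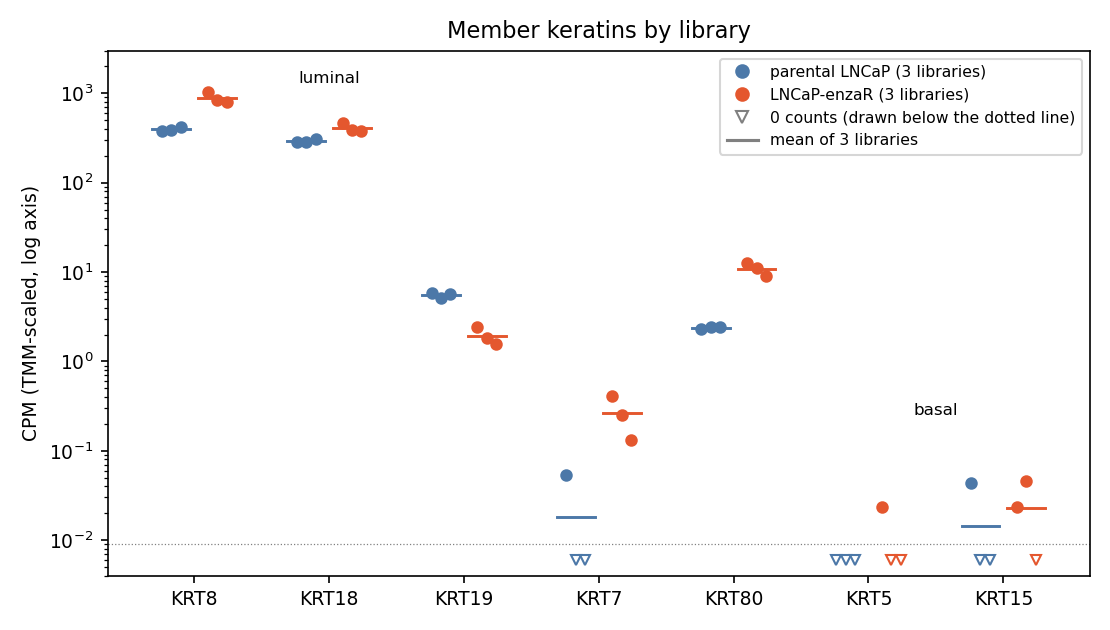
CPM of the 7 member keratins with a row in the table, by library, on a log axis, with the mean of 3 libraries as a bar and libraries at 0 counts as open triangles under the dotted line. KRT8 and KRT18 lie between 287 and 1025 CPM in every library, KRT19 is lower and KRT80 higher in LNCaP-enzaR, and KRT5 and KRT15 stay below 0.05 CPM.

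In all, 3 of the 5 tested members were higher (KRT7, KRT8 and KRT80), 1 was lower (KRT19) and 1 was not past the threshold (KRT18). Among all genes tested, 42.7% were past it, 23.3% higher and 19.5% lower. For all 5 the libraries of the lines did not overlap, which held for 70.6% of all genes tested. The median log2 fold change was 1.16 over the 5 and 0.01 over all genes tested. KRT7 entered only through its LNCaP-enzaR libraries, so the 5 do not stand for all 8.

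Per kilobase of annotated exon, KRT18 and KRT8 stood far above the other members in both lines. In parental cells KRT18 was at 95.5 ± 3.39 CPM per kilobase, above KRT8 at 57.7 ± 2.84. In LNCaP-enzaR KRT18 was at 135 ± 16.2 and KRT8 at 129 ± 17.7 CPM per kilobase, neighbors whose ranges over libraries overlap, although KRT18 was the higher in each library. The order of this pair rests on the length used, since with the length of the canonical transcript KRT8 was above KRT18 in both lines. Next came KRT19 at 2.36 ± 0.140 and KRT80 at 0.547 ± 0.0156 CPM per kilobase in parental cells, and these exchanged places in LNCaP-enzaR, where KRT80 was at 2.51 ± 0.398 and KRT19 at 0.829 ± 0.193.

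The balance between partner chains was then compared within each library. The KRT8 to KRT18 ratio of counts per kilobase was 0.590, 0.610 and 0.612 in the parental libraries and 0.970, 0.949 and 0.939 in the LNCaP-enzaR libraries. The ratio was higher in every LNCaP-enzaR library, by 1.58-fold (0.604 ± 0.012 against 0.952 ± 0.016, two-sided exact permutation test, p = 0.10, the smallest that 3 against 3 allows). Over all keratin genes in the table, the type II to type I ratio was 0.501 ± 0.011 in parental cells and 0.870 ± 0.018 in LNCaP-enzaR, a 1.74-fold difference (exact permutation p = 0.10). KRT8 and KRT18 make up most of these sums, so the family ratio largely repeats that of the pair. With the length of the canonical transcript, chosen as an alternative after the data were seen, the KRT8 to KRT18 ratio was 1.07 and 1.69, with the same fold by construction. The type II to type I ratio was then 0.969 and 1.60, a 1.66-fold difference.

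Keratin counts as a whole were 739 ± 29.5 CPM in parental cells and 1357 ± 178 in LNCaP-enzaR (exact permutation p = 0.10). Per kilobase, KRT8 and KRT18 together made up 87.6% ± 0.516 of keratin transcripts in parental cells and 91.8% ± 0.165 in LNCaP-enzaR (exact permutation p = 0.10). KRT8 alone was at 33.0% ± 0.505 and then 44.8% ± 0.464, while KRT18 was at 54.6% ± 0.439 and then 47.0% ± 0.300. KRT10, a type I keratin of the upper layers of the epidermis, made up most of the rest, at 10.3% ± 0.602 of the total for parental cells and 5.97% ± 0.260 for LNCaP-enzaR. These shares also move with the length used. With the canonical transcript KRT8 was at 49.0% and then 60.9%, KRT18 at 45.7% and then 36.0%, KRT10 at 4.004% and then 2.13%, and KRT8 and KRT18 together at 94.7% and then 96.9%.

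**Figure D2:**
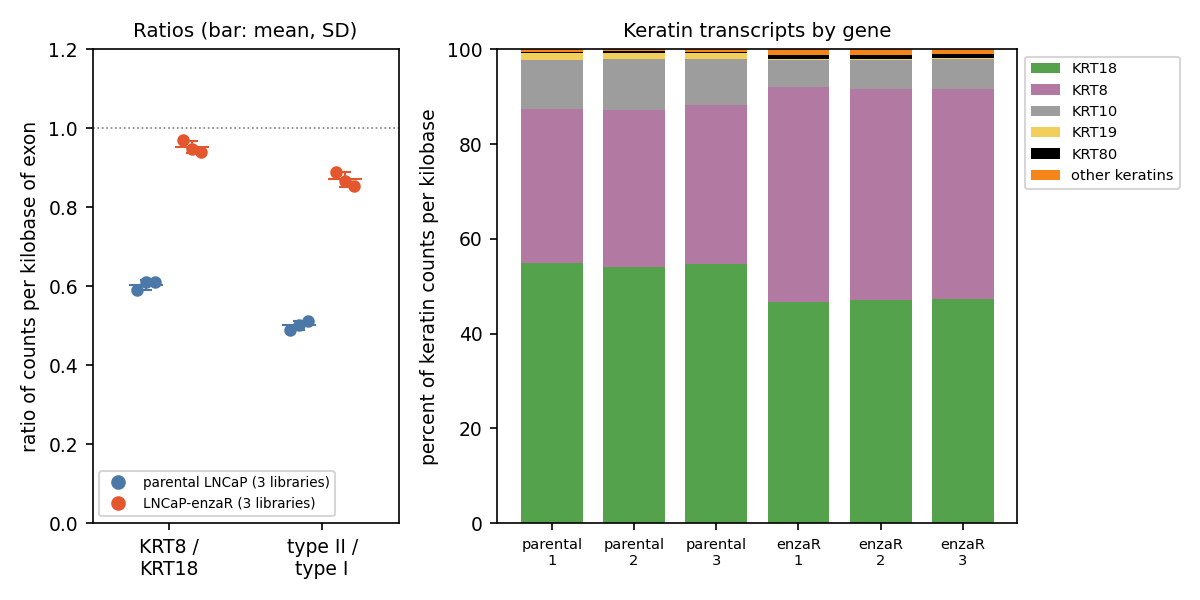
Left, the KRT8 to KRT18 and type II to type I ratios of counts per kilobase of exon in each library, with the mean and SD as bars and a dotted line at 1. Right, the percent of keratin counts per kilobase taken by each gene in each library. The KRT8 to KRT18 ratio lies between 0.590 and 0.612 in parental cells and between 0.939 and 0.970 in LNCaP-enzaR, and KRT8 takes a larger share in all 3 LNCaP-enzaR libraries.

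Of the 46 other keratin genes, 28 had a row and 9 were tested, of which 6 were higher and 2 lower, beside 23.3% and 19.5% of all genes tested. KRT9, KRT75, KRT81, KRT83 and KRT86 had at most 5 parental counts in all and entered the test through LNCaP-enzaR alone. KRT2, among the lower ones, entered through parental cells alone. With at least 10 counts required of each library, 1 other keratin was higher and 1 lower. Of the 9, 4 reached 1 CPM in a line. KRT10 did not pass the threshold (38.9 ± 1.60 CPM in parental cells and 37.0 ± 3.19 in LNCaP-enzaR, log2 fold change -0.07, edgeR adjusted p = 0.400), and the sign of its difference turned under upper-quartile scaling, to 0.03. KRT14, the basal partner of KRT5, had 129, 84 and 134 counts in the parental libraries and 67, 50 and 43 in LNCaP-enzaR, and was lower (log2 fold change -1.18, SE 0.286, edgeR adjusted p = 0.00218). KRT14 was thus present where its partner KRT5 was at or near 0.

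KRT6C, a type II keratin of stressed and stratified epithelium, had 27, 18 and 10 counts in the parental libraries and 140, 66 and 88 in LNCaP-enzaR, and was higher (log2 fold change 2.37, SE 0.382, edgeR adjusted p = 7.34e-05). It shares 16.3% of its 150-base windows with KRT6A or KRT6B, so its counts are uncertain. KRT83, a type II keratin of hair, had 0, 0 and 2 counts in the parental libraries and 218, 179 and 199 in LNCaP-enzaR. Its ratio of counts was 285, with an exact 95% counting interval of 78.6 to 2360, and its fitted log2 fold change was 7.92 (edgeR adjusted p = 2.41e-09) and 10.64 without parental replicate 3.

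The hair keratins KRT81 and KRT86, neighbors of KRT83 and chosen after their values were seen, moved the same way. KRT81 had 0 counts in every parental library and 82, 70 and 59 in LNCaP-enzaR, at least 67.3-fold higher against 3 counts over the group. KRT86 had 0, 5 and 0 counts and then 74, 54 and 69, with a fitted log2 fold change of 5.15, which was 9.01 without parental replicate 2 and 4.56 without parental replicate 1. Between 21.7% and 25.6% of the 150-base windows of these genes are shared by both, so reads cannot be told apart there, and 18.8% of the exonic bases of KRT86 lie in exons of other genes. The remaining tested keratins, also chosen after their values were seen, were KRT9 (0 counts in parental cells and 14, 18 and 14 in LNCaP-enzaR, at least 14.7-fold higher), KRT75 and KRT2. KRT75 had 0, 0 and 5 counts and then 18, 31 and 51, and its log2 fold change of 4.11 was 8.04 without parental replicate 3, 3.52 without parental replicate 1 and 3.53 without parental replicate 2. KRT2 had 14, 24 and 12 counts and then 0, 4 and 0, and its log2 fold change of -3.57 was -7.10 without LNCaP-enzaR replicate 2 and -2.97 without LNCaP-enzaR replicate 3.

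Split by type, 8 of the 9 tested type II keratins were higher and 1, KRT2, was lower. Of the 5 tested type I keratins 1 was higher, 2 were lower and 2 were not past the threshold. Over all genes tested, 23.3% were higher and 19.5% lower. Most of the 8, namely KRT7, KRT75, KRT81, KRT83 and KRT86, passed the count filter only through LNCaP-enzaR and could hardly come out lower. The same holds for KRT9, the type I gene that was higher. KRT2 in turn passed only through parental cells and could hardly come out higher. This split is therefore given as a description.

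**Figure D3:**
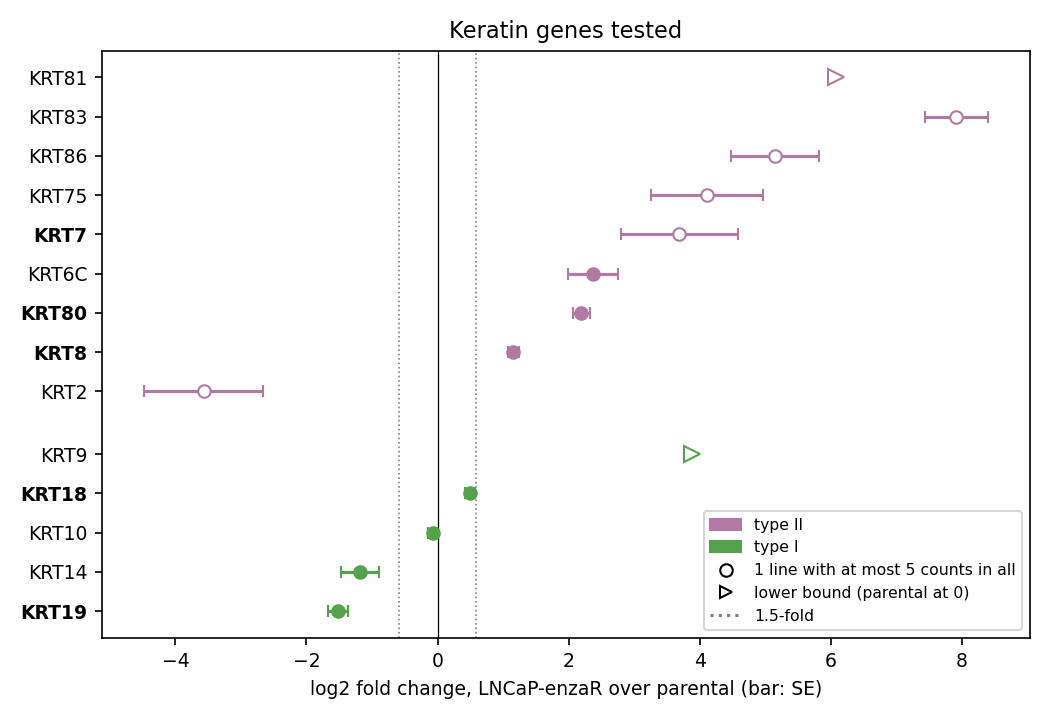
Log2 fold change with SE of the 14 keratin genes tested, type II above and type I below, with members in bold and dotted lines at 1.5-fold. Open circles mark genes with at most 5 counts in all in 1 of the lines, and triangles are lower bounds for KRT81 and KRT9, which were at 0 in parental cells. KRT8 and KRT80 lie to the right of the 1.5-fold line and KRT19 and KRT14 to the left, with KRT18 just inside it.

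**Figure D4:**
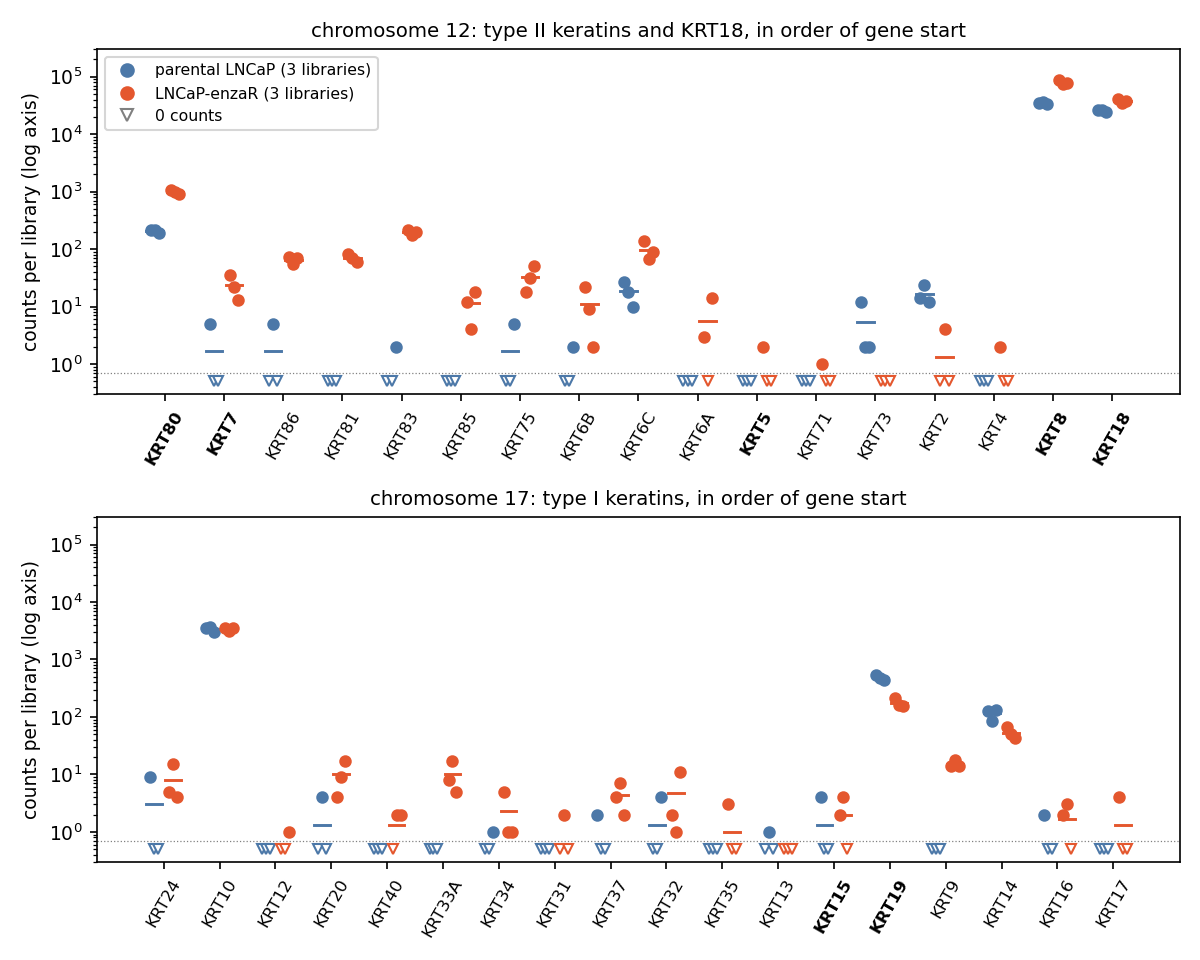
Counts per library, on a log axis, of the 35 keratin genes in the table, in order along chromosome 12 (type II and KRT18) and chromosome 17 (type I), members in bold. KRT8 and KRT18 stand side by side at the end of the type II cluster at 23970 counts or more, and KRT86, KRT81 and KRT83 hold 54 to 218 counts in LNCaP-enzaR and at most 5 in parental cells.

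Genes whose products work with keratins were counted by list. The counts and medians of all lists below stand beside 23.3% higher, 19.5% lower and a median log2 fold change of 0.01 over all genes tested. Desmosomes anchor keratin filaments at cell contacts. Of 13 desmosome genes 12 were tested, with 1 higher, 3 lower and a median log2 fold change of -0.10. The higher one, DSG4, passed the count filter through LNCaP-enzaR, and PKP1, among the lower ones, through parental cells. Both were named after their values were seen. With at least 10 counts required of each library, none was higher and 2 were lower. DSC3, a desmosomal cadherin, fell from 16.8 ± 0.497 to 5.36 ± 0.672 CPM (log2 fold change -1.65, edgeR adjusted p = 2.10e-09). DSP, the plakin that binds keratin at the desmosome, had a log2 fold change of -0.30 and was not past the fold limit.

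Hemidesmosomes and plakins tie keratin to the base of the cell and to other filaments. All 12 such genes were tested, with 4 higher, 1 lower and a median of 0.41. PLEC, the cross-linker plectin, rose from 142 ± 12.0 to 330 ± 42.8 CPM (log2 fold change 1.22, edgeR adjusted p = 1.33e-08). LAMA3, a laminin chain, rose by a log2 fold change of 1.54, and ITGA6, an integrin subunit of hemidesmosomes, was lower by a log2 fold change of -1.96 (edgeR adjusted p = 8.68e-11 and 2.88e-11).

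Of 9 genes whose products bind keratins, all were tested, with 2 higher, 1 lower and a median of -0.08. YWHAZ, a 14-3-3 protein, was higher (log2 fold change 0.87), PNN, a nuclear and desmosome-associated protein, was lower (-0.81), and TRADD, a death domain adaptor that binds KRT18, was just past the fold limit (0.60, and 0.55 without parental replicate 1 or 0.58 without LNCaP-enzaR replicate 1, where the call is lost). The 15 other intermediate filament genes included 9 tested, 2 higher and 4 lower, with a median of 0.44. VIM, the mesenchymal filament gene, rose from 2.85 ± 0.135 to 6.41 ± 0.544 CPM (log2 fold change 1.17, edgeR adjusted p = 4.88e-07). The lamin genes LMNB1 and LMNB2 fell (-2.56 and -1.17), as did the neurofilament gene NEFL (-2.86).

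Of 14 transcription factors linked to keratin genes, 11 were tested, with 3 higher, 6 lower and a median of -0.61. EHF, an epithelial ETS factor, fell from 605 ± 11.4 to 169 ± 14.8 CPM (log2 fold change -1.84, edgeR adjusted p = 8.88e-12). OVOL1 and ELF3, an epithelial zinc finger and an ETS factor, rose (2.12 and 0.99). GRHL2, an epithelial grainyhead factor, had a log2 fold change of -0.22 and was not past the fold limit. TP63, the defining factor of basal cells, had 0 counts in all parental libraries and 0, 1 and 0 in LNCaP-enzaR.

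Markers of prostate cell types were counted in the same way, again beside 23.3% higher and 19.5% lower over all genes tested. All 8 luminal markers other than keratins were tested, and 6 were lower and none higher, with a median log2 fold change of -0.77. The log2 fold change was -3.08 for KLK3, -2.00 for KLK2 and -0.84 for HOXB13, opposite in sign to that of KRT8. FOXA1 (-0.05) and TMPRSS2 (0.16), named after their values were seen, were not past the threshold. MSMB, among the lower ones and also named after its values were seen, passed the count filter through parental cells. With at least 10 counts required of each library, 5 luminal markers were lower and none higher. Of 10 basal markers other than KRT5 and KRT15, 7 were tested, with 4 higher and 1 lower (KRT14). NGFR (3, 1 and 13 parental counts) and S100A2 (18, 8 and 20), both higher and named after their values were seen, passed the count filter through LNCaP-enzaR. With at least 10 counts required of each library, 2 basal markers were higher and 1 lower. The summed level of the 10 was 2.81 to 3.51 CPM in parental cells and 7.11 to 9.53 in LNCaP-enzaR, with TP63 and KRT17 at or near 0. LAMB3, a laminin chain chosen after its values were seen, went from 0.166 ± 0.0626 to 4.22 ± 0.783 CPM and made up most of the difference in that sum.

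Of 12 club and hillock markers 6 were tested, with 3 higher and 3 lower. CP (7, 15 and 11 parental counts) and PIGR (20, 9 and 11), both higher, passed the count filter through LNCaP-enzaR. MMP7, among the lower ones, passed through parental cells (46, 29 and 35 counts, then 3, 3 and 1). These genes were named after their values were seen. With at least 10 counts required of each library, 1 club or hillock marker was higher and 2 were lower. SLPI, a protease inhibitor of secretory cells, rose from 3.60 ± 0.554 to 10.2 ± 0.537 CPM. Of 7 urothelial markers 3 were tested, and all 3 were higher, among them UPK3A (log2 fold change 1.97). The summed level of the 7 was 4.27 to 5.10 CPM in parental cells and 15.003 to 18.8 in LNCaP-enzaR. UPK2, named after its values were seen, had 0, 1 and 12 parental counts and passed the count filter through LNCaP-enzaR. Of 8 squamous markers 4 were tested, and all 4 were higher. TGM1, a transglutaminase of the cell envelope, had a log2 fold change of 2.23. That of CNFN was 0.62, and 0.40 without LNCaP-enzaR replicate 1. SPRR1A (1, 0 and 0 parental counts) and IVL (3, 12 and 18), also named after their values were seen, passed the filter through LNCaP-enzaR. With at least 10 counts required of each library, 2 urothelial and 2 squamous markers were higher. Of 10 non-epithelial markers 5 were tested, with 2 higher (ACTA2 at 2.12) and 1 lower (COL1A1 at -1.64). The part of cells of these types in the keratin results was not tested.

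**Figure D5:**
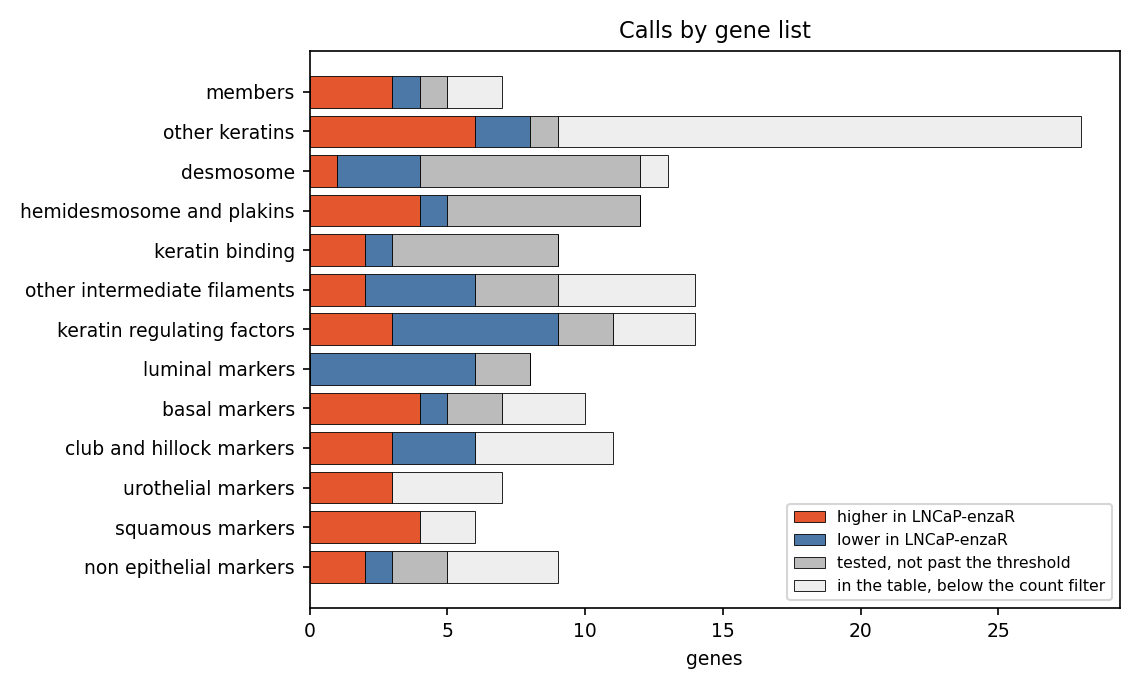
Number of genes in each list that were higher or lower in LNCaP-enzaR, tested but not past the threshold, or in the table but below the count filter. The luminal markers hold 6 lower and none higher, and the tested urothelial and squamous markers are all higher. Some of the urothelial and squamous markers passed the count filter through LNCaP-enzaR. Some genes of other lists likewise passed through only LNCaP-enzaR or only parental cells. Of all genes tested, 23.3% were higher and 19.5% lower.

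Genes outside the keratin family with the most similar pattern to each member were found by Pearson correlation of log2 CPM over the 6 libraries, among 11213 genes with at least 5 CPM in a line. The points fall into the 2 lines and the libraries share their depth, so a gene that differs between the lines scores high, and no p is given. The best match of KRT8 was RP4-591C20.9, with 589 genes at r of at least 0.99. That of KRT18 was GGA1 (128 such genes), that of KRT19 was ARHGEF16 (150) and that of KRT80 was the mitochondrial gene MT-ND1 (784).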

How the data were processed

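RNA was extracted from parental LNCaP and LNCaP-enzaR cells, and polyadenylated RNA libraries were sequenced as paired-end reads of 150 bases. The authors trimmed reads with cutadapt, aligned them to GRCh38 with STAR and the GENCODE annotation, and used featureCounts to obtain counts for each gene. The deposited table holds these raw counts, not normalized. The strand setting and the handling of multimapping reads are not given in the sources used here.

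The analysis used edgeR 4.0.16 (R 4.3.3). After filterByExpr, 19711 genes holding 99.96% of the counts were tested with the robust quasi-likelihood F-test on all 6 libraries, with TMM scaling and no covariates, and p-values were adjusted by Benjamini-Hochberg over all of them. Levels are CPM per 1000000. Ratios were tested with a two-sided exact permutation test. The limits on fold and adjusted p are those of the study's methods, which name DESeq2, here an alternative (version 1.42.0). Exon lengths, overlaps and sequences came from GENCODE v44, in which 99.8% of the genes were found by identifier and 91.4% of those had the same position. Intervals and limits cover counting error only, since reads are not independent molecules.

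The members and gene lists were chosen with earlier results of these data known. By rule, the text names all members, other tested keratins with a mean of at least 1 CPM in a line, the 3 genes of each other list with the smallest p among those past the threshold at a mean of at least 5 CPM, TP63, VIM, DSP, PLEC and GRHL2, 1 more gene, left out of the text, and the most similar gene of each member with at least 5 CPM. Group and replicate were read from the sample titles. Alternatives covered the tool, the scaling, the filter, the gene set, the thresholds, the length, the pseudogenes, the replicate block and each library left out. The canonical transcript length and the fit without mitochondrial genes were added after the data were seen.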

Additional observations from a re-analysis of the deposited data

How the results depend on the processing

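Of 44 named genes, 39 kept their direction and side of the threshold in every alternative that tested them. With at least 10 counts required of each library, KRT7, KRT9, KRT2, KRT75, KRT81, KRT83 and KRT86 were not tested and so have no call, RP4-591C20.9 was not tested among protein-coding genes, and MT-ND1 was not tested without mitochondrial genes. The count of keratin members past the threshold was 4, except for 5 under upper-quartile scaling or with no minimum fold change and 3 when every library had to hold 10 counts, and 7 of 16 comparisons kept their value within 1.5 times or their direction throughout. KRT10 changed sign under upper-quartile scaling (0.029), which also raised the share of higher calls from 54.5% to 60.9% of calls and took KRT18 to 0.60, past the fold limit. TRADD lost its call with library totals (0.57) and without parental replicate 1 (0.55) or LNCaP-enzaR replicate 1 (0.58), CNFN without LNCaP-enzaR replicate 1 (0.40), and ARHGEF16 gained one there (-0.60).

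With no filter, 14 other keratins and 5 urothelial markers were past the threshold, since more genes are tested. With at least 10 counts in every library the counts were 2 for other keratins, 2 for the desmosome, 3 for basal markers, 3 for club and hillock markers and 2 for squamous markers, since fewer genes are tested. With no minimum fold change 9 desmosome and 6 keratin binding genes passed, and with a fold change of at least 2, 0 keratin binding genes, 4 keratin regulating factors and 3 luminal markers.

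Same-numbered replicates did not deviate together (correlations of -0.065, -0.00041 and -0.051), so the numbers do not pair the samples. When replicate number entered the model as a block, 8212 genes were called against 8425, and 4 members were past the threshold, with log2 fold changes of 1.15 for KRT8, 0.49 for KRT18, -1.53 for KRT19, 2.19 for KRT80 and 4.01 for KRT7. Depth limits KRT5, KRT15 and KRT7, which rest on few counts.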

Other observations

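Desmosome genes that the rule did not name, chosen after their values were seen, included some with large differences at low levels. PKP1, a plakophilin of stratified epithelium, had 369, 349 and 278 counts in parental cells and 1, 2 and 3 in LNCaP-enzaR. DSG4, a desmosomal cadherin of hair, had 12, 5 and 1 counts and then 95, 114 and 140. DSC1 had 434, 354 and 331 counts and then 82, 85 and 115.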
